A study of Mus musculus with 6 samples.

Results

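The enzymes described here are grouped for burning fatty acids and ketone bodies inside mitochondria, though not all act only there. They are 30 genes named as a set: the carnitine shuttle, the acyl-CoA dehydrogenases and their electron carriers, the hydratases, hydroxyacyl-CoA dehydrogenases and thiolases of the beta-oxidation cycle, the enzymes for double bonds, and those for ketone bodies and propionate. All 30 were found among the 22942 genes of the deposited tables, each read from the RefSeq transcript with the highest mean over the libraries. Messenger RNA of C3H-10T1/2 cells, a mouse mesenchymal line able to form fat cells, was sequenced on day 6 of brown adipocyte differentiation. The 3 cultures labelled 611 received 4 uM of that compound, also called Cpd A and described as an LSD1 inhibitor, and the 3 cultures labelled DMSO received the solvent. Both groups were induced for 72 h in medium with 10% fetal bovine serum (FBS) in DMEM/F12, in which isobutylmethylxanthine was at 0.5 mM, indomethacin at 125 uM, dexamethasone and rosiglitazone at 1 uM each, insulin at 20 nM and the thyroid hormone T3 at 1 nM, and then kept in serum, insulin, T3 and rosiglitazone. The labels put the start of treatment at seeding in 1 place and 12 h later in another, with induction 48 h after that. All libraries come from 1 cell line in culture, and rosiglitazone, a PPAR-gamma agonist, was present in both groups.

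In beta-oxidation a long-chain fatty acid enters the mitochondrion as a carnitine ester and is then shortened by acetyl-CoA in repeated rounds of dehydrogenation, hydration, a second dehydrogenation and thiolysis. Electrons from the acyl-CoA dehydrogenases reach the respiratory chain through the electron transfer flavoprotein. Brown fat uses this route as its main fuel for heat, and many of its genes are targets of PPAR transcription factors. LSD1, the product of Kdm1a, is a histone demethylase.

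Nearly the whole pathway was lower in cells given 611. Levels are in RPKM, reads per kilobase of transcript scaled to the size of the library, and are given as mean ± SD with n = 3 libraries per group. Of the 30 genes, 29 passed the filter on low values (at least 0.1 RPKM in at least 3 libraries). With 611, 27 of these were lower and 1, Cpt1a, was higher (limma across all genes, Benjamini-Hochberg adjusted p below 0.05). Of all 13829 genes tested, 17.7% were lower and 41.6% were higher by the same rule. All 3 libraries with 611 lay below all 3 with DMSO for 28 of the 29 genes, against 20.4% of all genes tested, and above them for Cpt1a, as for 45.8% of all genes tested. The median log2 fold change of RPKM + 1 over the 29 genes was -0.50, against 0.10 over all genes tested, and 4.17% of all genes had a value below that median. Adding 1 understates changes of genes at low RPKM, and all genes tested were not matched to the 29 for level. Median-of-ratios scaling, which sets the middle of all genes to no change, shifts the median of all genes by 0.11, and after it the median of the 29 genes was -0.65, 28 were lower and Cpt1a was still higher. After that scaling 28.6% of all genes tested were lower and 28.5% were higher. In a culture with several kinds of cell, fewer fat cells and less RNA per fat cell cannot be told apart in these values.

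**Figure D1:**
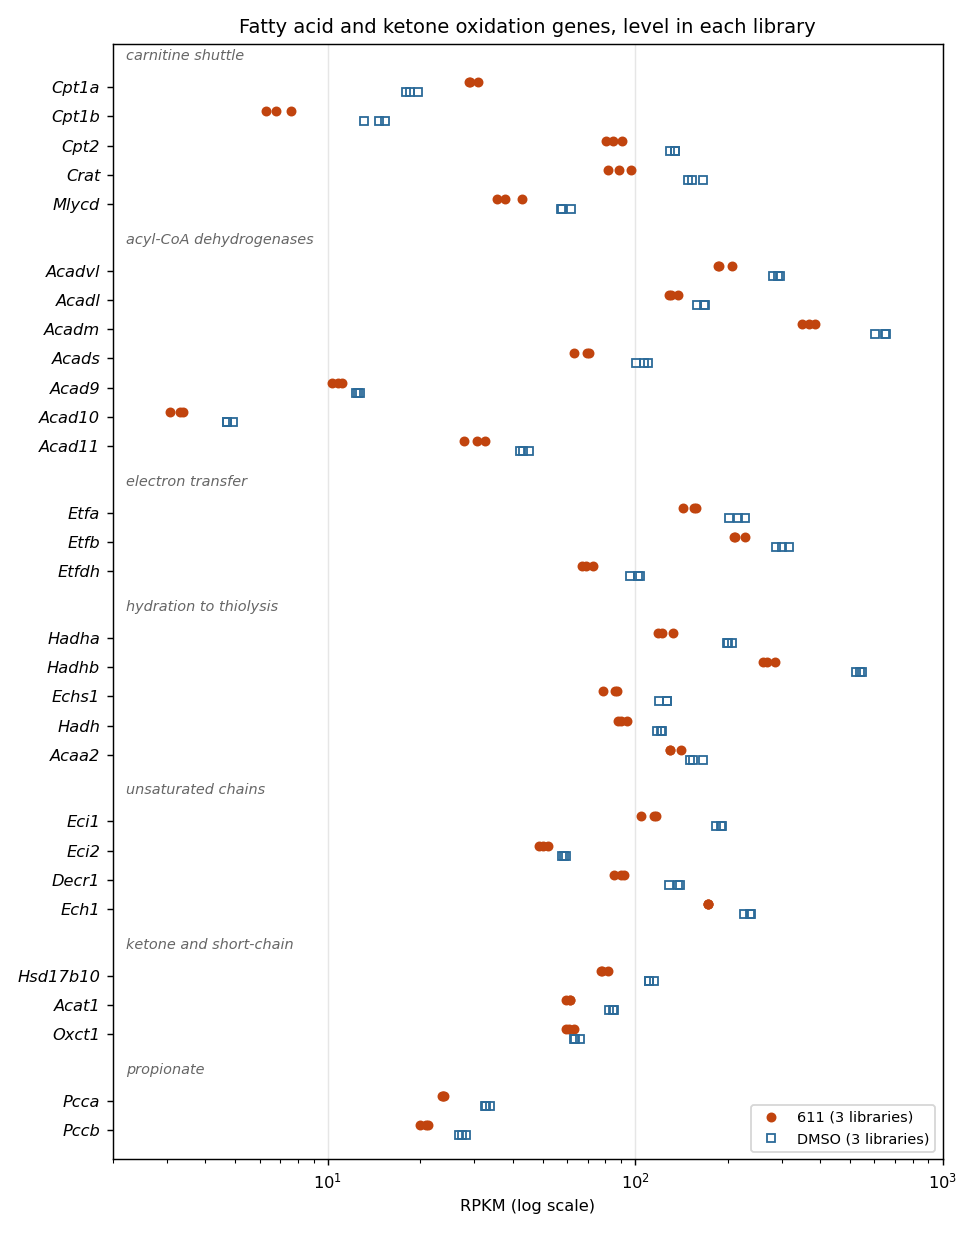
Level of each of the 29 tested genes in each library, in RPKM on a log axis, grouped by role, with filled circles for the 3 libraries with 611 and open squares for the 3 with DMSO. The circles lie left of the squares for every gene except Cpt1a, where they lie to the right, and they come closest at Oxct1. Bdh1, with 0 in 3 of the 6 libraries, is not drawn.

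The summed level of the 30 genes was 2989.7, 2809 and 2801 RPKM in the libraries with 611, against 4413, 4233 and 4353 RPKM in those with DMSO. The sum with 611 was therefore 0.661 times that with DMSO, at 2866 ± 107 against 4333 ± 92.0 RPKM, and the groups did not overlap. The pathway took 0.851% ± 0.0293 of the summed RPKM of all genes with 611, against 1.23% ± 0.0294 with DMSO. A few genes carried much of the total: Acadm and Hadhb together made up 22.3% ± 0.253 of the pathway's sum with 611 and 27.0% ± 0.529 with DMSO. These genes also ranked first and second in both groups.

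**Figure D2:**
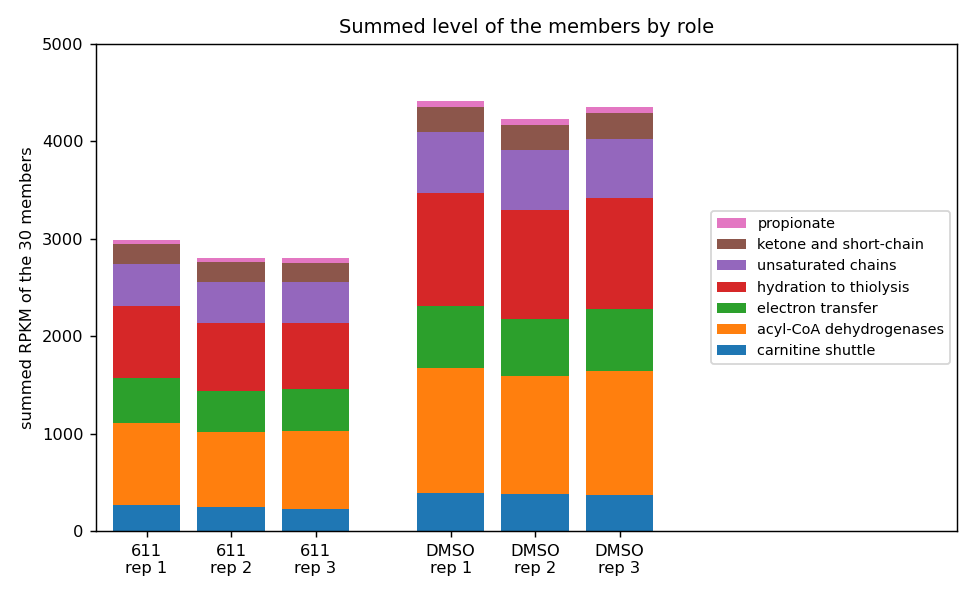
Summed RPKM of the 30 genes in each library, with the 3 libraries with 611 on the left and the 3 with DMSO on the right; colours mark the roles. The bars with 611 reach 2801 to 2989.7 RPKM and those with DMSO 4233 to 4413 RPKM.

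By role, the mix of the pathway shifted only slightly. The steps from hydration to thiolysis fell to 24.6% ± 0.325 of the sum with 611, against 26.3% ± 0.115 with DMSO. Ketone body and short-chain enzymes made up 7.02% ± 0.209 with 611 and 6.03% ± 0.172 with DMSO, and the electron transfer genes 15.3% ± 0.348 with 611 and 14.2% ± 0.353 with DMSO. The dehydrogenases made up 28.1% ± 0.391 with 611 and 29.0% ± 0.401 with DMSO. For these 4 roles and for propionate the groups did not overlap. The shares of the carnitine shuttle, at 8.71% ± 0.332 with 611 and 8.80% ± 0.291 with DMSO, overlapped and were lower with 611 in all 3 same-numbered pairs. Those of the genes for unsaturated chains, at 14.8% ± 0.351 with 611 and 14.2% ± 0.331 with DMSO, also overlapped and were higher with 611 in all 3 pairs.

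The carnitine shuttle held the only opposite pair. Cpt1a and Cpt1b encode the liver-type and the muscle-type carnitine palmitoyltransferase 1, the outer membrane enzyme that commits long-chain fatty acids to oxidation and that malonyl-CoA inhibits. Cpt1b, the isoform of muscle and brown fat, was at 7.59, 6.32 and 6.77 RPKM with 611, against 15.4, 13.1 and 14.6 RPKM with DMSO. It fell 2.09-fold (limma log2 fold change -0.96, SE 0.0754, adjusted p = 9.9e-06). Cpt1a was at 29.1, 30.7 and 28.7 RPKM with 611, against 18.6, 19.7 and 18.0 RPKM with DMSO. It rose 1.57-fold (limma log2 fold change 0.63, SE 0.0462, adjusted p = 7.1e-06), and median-of-ratios scaling left 0.48 of it. No library of either group reached into the range of the other for these genes.

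The change of both isoforms together was small, while their proportions moved far. Cpt1a and Cpt1b summed to 36.7, 37.0 and 35.5 RPKM with 611, against 34.0, 32.8 and 32.6 RPKM with DMSO. Cpt1a was 81.1% ± 1.81 of that sum with 611 and 56.6% ± 2.95 of it with DMSO. The ratio of Cpt1a to Cpt1b, which does not depend on scaling between libraries, was 4.32 ± 0.516 with 611 and 1.31 ± 0.164 with DMSO, 3.29 times as high. Reads of Cpt1b may be shared with Gm44502, a noncoding RNA gene whose span overlaps it in the RefSeq gene table, which was at 11.6 ± 0.937 RPKM with 611 and 19.1 ± 1.04 RPKM with DMSO. Cpt1c, the brain-type relative in the endoplasmic reticulum, was 2.29-fold higher, at 5.52 ± 0.620 RPKM with 611 and 2.42 ± 0.352 RPKM with DMSO (limma adjusted p = 5.0e-05).

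The start region of Cpt1a is shown because it belongs to the member that rose. The sequence is the 250 bases before the RefSeq start, in GRCm38.p6, a later build than the mm9 of the submitters' notes, at chr19:3323051-3323300 on the plus strand.
Cpt1a: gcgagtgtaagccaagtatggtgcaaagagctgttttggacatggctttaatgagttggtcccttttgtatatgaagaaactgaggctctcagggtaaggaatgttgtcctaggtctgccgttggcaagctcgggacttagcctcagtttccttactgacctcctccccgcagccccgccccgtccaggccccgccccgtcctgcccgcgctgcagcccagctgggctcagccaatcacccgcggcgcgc
It held none of the motifs searched, which are spelled out with the dehydrogenase Acadm, and 59.6% of its bases were G or C.

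The other genes grouped with the carnitine shuttle were lower. Cpt2, the inner membrane transferase that releases acyl-CoA in the matrix, was at 90.6, 84.9 and 80.5 RPKM with 611, against 135, 135 and 129 RPKM with DMSO, a fall of 1.56-fold. Crat, the transferase for acetyl and short acyl groups, fell 1.75-fold, at 89.2 ± 7.82 RPKM with 611 and 156 ± 9.04 RPKM with DMSO. Mlycd, the decarboxylase that removes malonyl-CoA, fell 1.52-fold, at 38.7 ± 3.66 RPKM with 611 and 58.9 ± 2.45 RPKM with DMSO (limma adjusted p-values of the 3 genes from 7.6e-06 to 6.7e-05). Acacb, the carboxylase that makes malonyl-CoA at the mitochondrion and a gene singled out after its values were seen, was lower too, at 13.6 ± 1.72 RPKM with 611 and 20.0 ± 1.56 RPKM with DMSO (limma adjusted p = 7.4e-04). Slc25a20, which carries acylcarnitine across the inner membrane, was at 47.3 ± 2.95 RPKM with 611 and 65.3 ± 3.37 RPKM with DMSO, 1.38-fold lower (limma adjusted p = 1.2e-04). Of the 8 genes named so far for entry or its control, which are not a planned list, Cpt1a and Cpt1c were higher with 611 and the other 6 lower. In the full list of 10 transport and activation genes, given below, 8 fell and 2 rose. Of all genes tested, 17.7% were lower and 41.6% higher.

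**Figure D3:**
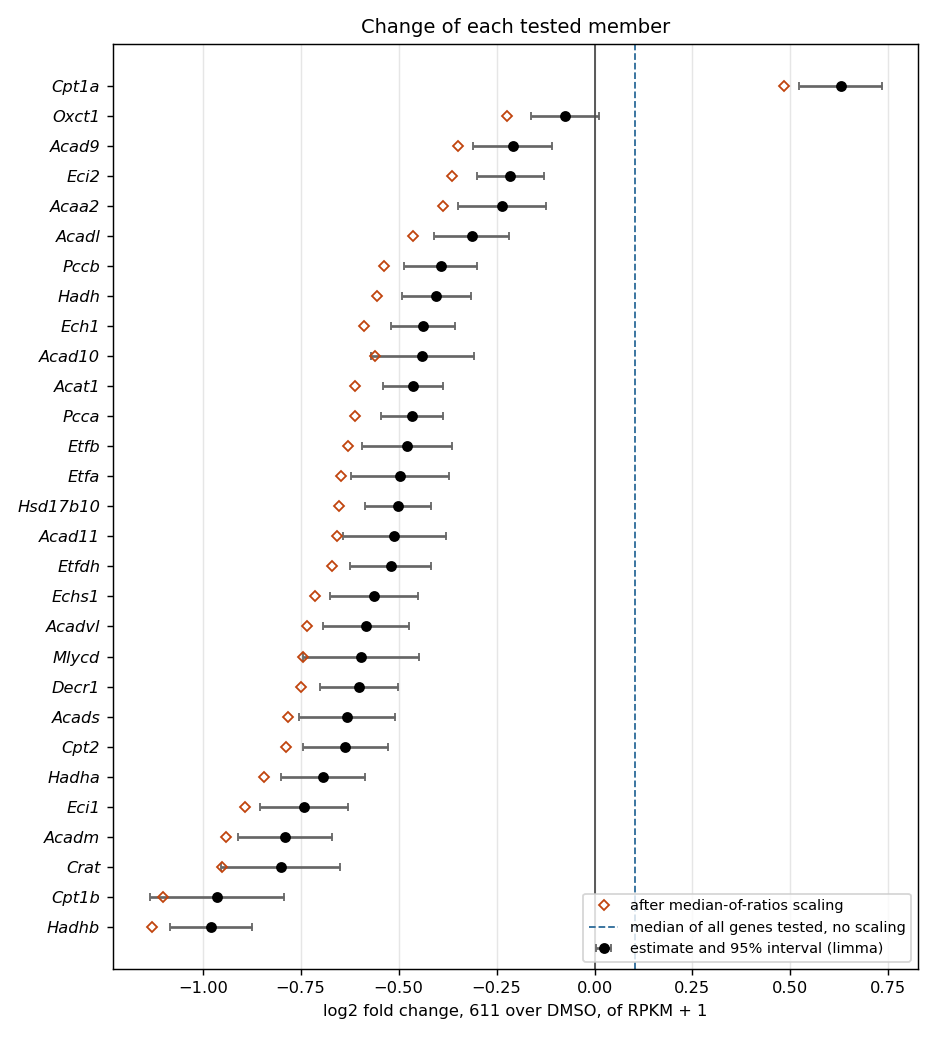
log2 fold change of RPKM + 1, 611 over DMSO, for the 29 tested genes, from the highest to the lowest, with 95% intervals from limma; open diamonds give the value after median-of-ratios scaling and the dashed line the median of all genes tested, 0.10. Cpt1a at 0.63 stands apart on the right, Oxct1 crosses 0, and Hadhb and Cpt1b are lowest at -0.98 and -0.96.

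All 7 acyl-CoA dehydrogenase genes fell, by unequal amounts. Acadm, the medium-chain enzyme and the gene with the highest level in the pathway, was at 384, 349.9 and 368 RPKM with 611, against 649.7, 601 and 656 RPKM with DMSO. The groups were far apart, by 34.2% of the DMSO mean, and Acadm fell 1.73-fold (limma log2 fold change -0.79, SE 0.0528, adjusted p = 4.4e-06). Acads, for short chains, fell 1.56-fold, at 67.9 ± 4.23 RPKM with 611 and 106 ± 4.88 RPKM with DMSO. Acadvl, the membrane-bound enzyme for very long chains, fell 1.50-fold, at 193 ± 11.2 RPKM with 611 and 289 ± 7.08 RPKM with DMSO. Acadl, the long-chain enzyme, fell less, 1.24-fold, at 133 ± 4.90 RPKM with 611 and 165 ± 5.41 RPKM with DMSO. The ratio of Acadl to Acadvl was accordingly higher with 611, at 0.672, 0.695 and 0.700, against 0.579, 0.565 and 0.569 with DMSO.

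The less well known members of this family were lower as well. Acad11 fell 1.44-fold, at 30.3 ± 2.40 RPKM with 611 and 43.5 ± 1.60 RPKM with DMSO. Acad10, the member of the family with the lowest level, fell 1.47-fold, at 3.25 ± 0.172 RPKM with 611 and 4.76 ± 0.125 RPKM with DMSO; at a transcript length from GENCODE its libraries held at least 453 reads each. Acad9, which is better known for assembling respiratory complex I than for oxidation, had the smallest fall of the family, 1.17-fold, at 10.7 ± 0.396 RPKM with 611 and 12.6 ± 0.161 RPKM with DMSO (limma adjusted p = 0.0033).

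Acadm is shown because it led the pathway in level and its start region was the only one on hand with the nuclear receptor motif AAGGTCA. The sequence is the 250 bases before the RefSeq start in GRCm38.p6, at chr3:153944644-153944893 on the minus strand, with that motif, which reads TGACCTT on the printed strand, in capitals.
Acadm: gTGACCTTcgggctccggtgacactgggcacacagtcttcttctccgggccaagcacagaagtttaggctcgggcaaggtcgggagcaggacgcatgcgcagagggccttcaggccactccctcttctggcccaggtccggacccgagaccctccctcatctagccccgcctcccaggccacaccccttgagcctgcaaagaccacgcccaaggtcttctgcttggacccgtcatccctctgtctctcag
RefSeq windows of 300 bases, 250 before and 50 after a start, were on hand for 24 of the 30 genes, 26 windows in all. Each was searched on both strands for AAGGTCA, for CCGGAAG, an ETS core, and for AGGTCA repeated after any 1 base, the form that PPAR and RXR bind. AAGGTCA stood in 1 of the 26 windows, 3.85%, against 4.72% of all 32851 windows. CCGGAAG stood in 2 windows, those of Cpt2 and Mlycd, 7.69% against 8.86%. The repeat, searched only in this exact spelling, stood in none of the 26 and in 0.0396% of all windows. With a share so small, its absence from 26 windows tells nothing about the members. These shares are descriptions of the letters in short windows and say nothing about binding.

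All 3 electron transfer genes fell. Etfa and Etfb encode the subunits of the electron transfer flavoprotein, and Etfdh the oxidoreductase that hands its electrons to ubiquinone. Etfa was at 156, 143 and 158 RPKM with 611, against 216, 202 and 227 RPKM with DMSO. The falls were 1.41-fold for Etfa, 1.40-fold for Etfb and 1.44-fold for Etfdh, with limma adjusted p-values from 1.9e-05 to 7.6e-05. Etfb was at 216 ± 10.5 RPKM with 611 and 302 ± 14.3 RPKM with DMSO, and Etfdh at 69.9 ± 3.12 RPKM with 611 and 101 ± 4.05 RPKM with DMSO. The ratio of Etfa to Etfb was 0.704 ± 0.0384 with 611 and 0.713 ± 0.0373 with DMSO, a log2 difference of -0.02. The groups overlapped, and the ratio was lower with 611 in all 3 same-numbered pairs.

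The subunits of the mitochondrial trifunctional protein fell unequally. This complex in the inner membrane carries out hydration, dehydrogenation and thiolysis of long chains, with Hadha as the alpha and Hadhb as the beta subunit, the thiolase. Hadhb was at 286, 268 and 261 RPKM with 611, against 539.7, 523 and 545 RPKM with DMSO, and Hadha was at 133, 123 and 119 RPKM with 611, against 207, 199.6 and 200.5 RPKM with DMSO. Hadhb had the largest fall of the pathway on the log2 scale of RPKM + 1, just past Cpt1b, -0.98 with a 95% interval from -1.08 to -0.88 (limma adjusted p = 8.4e-07). That order depends on the scale: by the ratio of mean RPKM, Cpt1b fell more, 2.09-fold against 1.97-fold for Hadhb. For Hadha the log2 fold change was -0.69 with a 95% interval from -0.80 to -0.59 (limma adjusted p = 4.7e-06). The ratio of Hadha to Hadhb was 0.466, 0.458 and 0.455 with 611, against 0.383, 0.382 and 0.368 with DMSO, 1.22 times as high, and the groups did not overlap.

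Hadha and Hadhb lie head to head on chromosome 5, so the stretch between them is shown. Their RefSeq starts are 273 bases apart on opposite strands, and 9.82% of the 16560 plus-strand starts in the same table have a minus-strand start within 500 bases before them. The sequence is the 250 bases before the Hadhb start in GRCm38.p6, at chr5:30155003-30155252 on the plus strand, which covers most of that stretch.
Hadhb: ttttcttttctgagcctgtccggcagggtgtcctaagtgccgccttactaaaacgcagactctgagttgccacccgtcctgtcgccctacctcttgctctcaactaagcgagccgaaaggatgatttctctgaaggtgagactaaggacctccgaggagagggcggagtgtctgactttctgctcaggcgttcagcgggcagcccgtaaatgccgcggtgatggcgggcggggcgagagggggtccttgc
None of the motifs searched was in the windows of either gene, and 58.8% of these bases were G or C. Over windows of 300 bases the median was 58.8% for the members and 52.4% for all windows.

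The matrix enzymes that complete the cycle for shorter chains were also lower. Echs1, the short-chain enoyl-CoA hydratase, fell 1.48-fold, at 83.9 ± 4.76 RPKM with 611 and 124 ± 4.49 RPKM with DMSO. Hadh, the hydroxyacyl-CoA dehydrogenase of the matrix, fell 1.33-fold, at 90.7 ± 3.33 RPKM with 611 and 120.3 ± 2.32 RPKM with DMSO. Acaa2, the thiolase of the matrix, was at 141, 129.8 and 129.7 RPKM with 611, against 166, 151 and 155 RPKM with DMSO. Its fall of 1.18-fold was among the smallest (limma adjusted p = 0.0031), in contrast to the 1.97-fold fall of Hadhb, the thiolase of the trifunctional protein.

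Natural unsaturated fats need extra enzymes to move or remove double bonds, and these 4 genes fell by different amounts. Eci1, an enoyl-CoA isomerase, was at 115, 117 and 104 RPKM with 611, against 190.5, 191 and 183 RPKM with DMSO, 1.68-fold lower. Eci2, an isomerase found in mitochondria and peroxisomes, was at 50.3 ± 1.74 RPKM with 611 and 58.6 ± 0.824 RPKM with DMSO, 1.16-fold lower (limma adjusted p = 0.0011). The ratio of Eci1 to Eci2 was thus 2.23 ± 0.101 with 611 and 3.21 ± 0.0881 with DMSO. Decr1, the dienoyl-CoA reductase, fell 1.52-fold, at 89.1 ± 3.14 RPKM with 611 and 136 ± 5.58 RPKM with DMSO. Ech1, a dienoyl-CoA isomerase, fell 1.36-fold, at 172 ± 0.155 RPKM with 611 and 234 ± 6.35 RPKM with DMSO.

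**Figure D4:**
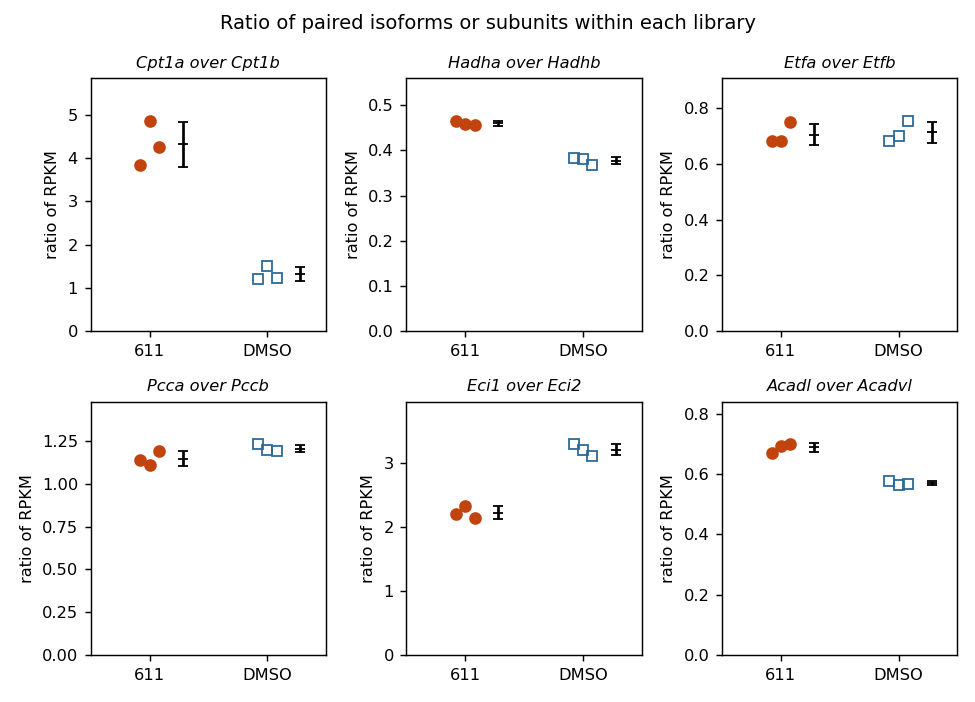
Ratio of RPKM between paired isoforms or subunits within each library, with 611 left of DMSO in each panel; points are libraries and bars the mean ± SD of 3 libraries. The groups stand apart for Cpt1a over Cpt1b, Hadha over Hadhb, Eci1 over Eci2 and Acadl over Acadvl, and overlap for Etfa over Etfb and Pcca over Pccb.

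These ratios were compared between groups for 6 pairs with an exact two-sided permutation test over the 6 libraries. With 3 libraries against 3 the smallest possible p is 0.10, so no pair could pass 0.05. Cpt1a over Cpt1b, Hadha over Hadhb, Eci1 over Eci2 and Acadl over Acadvl each reached that smallest exact p of 0.10 (0.15 adjusted over the 6 pairs). Their log2 differences, 611 minus DMSO, were 1.72, 0.29, -0.53 and 0.27, against replicate SDs of 0.173, 0.0258, 0.0536 and 0.0255. For Pcca over Pccb the log2 difference was -0.07 (exact permutation p = 0.20, 0.24 adjusted) and for Etfa over Etfb it was -0.02 (exact permutation p = 0.50 before and after adjustment).

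Ketone body genes were uneven. Oxct1, the transferase that activates acetoacetate and so limits ketone use, was at 63.1, 59.4 and 61.0 RPKM with 611, against 63.9, 63.3 and 66.3 RPKM with DMSO. The libraries with 611 lay below the others by 0.194% of the DMSO mean, and the difference did not pass the test (limma log2 fold change -0.07, 95% interval from -0.16 to 0.01, adjusted p = 0.12). After median-of-ratios scaling Oxct1 was called lower (limma log2 fold change -0.22, adjusted p = 0.0019). Acat1, the thiolase that splits acetoacetyl-CoA, was at 61.2, 59.7 and 61.2 RPKM with 611, against 82.2, 84.9 and 85.1 RPKM with DMSO. It fell 1.38-fold (limma adjusted p = 6.6e-06). Hsd17b10, a dehydrogenase for short branched acyl groups that is also a subunit of mitochondrial RNase P, fell 1.42-fold, at 79.2 ± 2.35 RPKM with 611 and 113 ± 2.41 RPKM with DMSO.

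Bdh1, the dehydrogenase that interconverts hydroxybutyrate and acetoacetate, was all but undetected. It was listed at 0.0157, 0.0156 and 0 RPKM with 611, against 0, 0.0323 and 0 RPKM with DMSO. At its GENCODE length these values are about 2, 2 and 0 reads with 611, against 0, 4 and 0 reads with DMSO, and 3 reads would be 0.0233 to 0.0247 RPKM. Bdh1 was too low to test, and a difference between the groups was not detectable at this depth.

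Propionyl-CoA, the last product of odd-numbered chains and of some amino acids, is carboxylated by the enzyme of Pcca and Pccb. Pcca was at 23.7, 23.5 and 23.8 RPKM with 611, against 32.8, 33.8 and 32.5 RPKM with DMSO, 1.40-fold lower. Pccb fell 1.33-fold, at 20.6 ± 0.627 RPKM with 611 and 27.4 ± 0.816 RPKM with DMSO. Mmut, the mutase that turns methylmalonyl-CoA into succinyl-CoA, was 1.64-fold lower, at 38.6 ± 0.848 RPKM with 611 and 63.4 ± 2.82 RPKM with DMSO (limma adjusted p = 2.4e-06).

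Other genes of the pathway, in lists of 37 genes, gave 25 lower and 4 higher among the 34 that were tested, and their median log2 fold change was -0.39. The shares over all 13829 genes tested were 17.7% lower and 41.6% higher. Among 10 genes of transport and activation 8 fell and 2, Cpt1c and Acsl5, rose. All 8 genes of propionate use and branched-chain dehydrogenation fell. Acsf2, an acyl-CoA synthetase of mitochondria, had the largest fall of these lists, at 12.1, 14.4 and 11.2 RPKM with 611, against 31.3, 33.9 and 30.4 RPKM with DMSO, 2.53-fold. Acot2, a mitochondrial thioesterase, fell 1.64-fold, at 16.9 ± 0.809 RPKM with 611 and 27.7 ± 2.67 RPKM with DMSO. Dbi, which binds acyl-CoA in the cytosol, fell 1.54-fold, at 614 ± 35.3 RPKM with 611 and 944 ± 27.1 RPKM with DMSO (limma adjusted p-values of the 3 genes from 3.9e-06 to 4.1e-05).

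Among 7 other ketone genes, 4 were tested, of which 2 fell and 2 rose. With 17.7% of all genes tested lower and 41.6% higher, 2 rises among 4 genes are not set apart from that share. Bdh2, a cytosolic relative of Bdh1, was at 3.21, 4.02 and 3.34 RPKM with 611, against 0.797, 1.33 and 0.708 RPKM with DMSO, 3.73-fold higher (limma adjusted p = 3.8e-05).

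Of 13 regulators and other PPAR targets 7 fell, 1 rose and 5 did not pass the test, and after median-of-ratios scaling 10 were lower. Over all genes tested the shares were 17.7% lower and 41.6% higher, and after that scaling 28.6% lower and 28.5% higher. Of the genes whose call depended on the setting, 3 are given here after their values were seen. Angptl4, a secreted inhibitor of lipoprotein lipase, was at 112, 145 and 120.2 RPKM with 611 and 125, 162 and 138 RPKM with DMSO, lower in all 3 same-numbered pairs (limma adjusted p = 0.20; 9.5e-04 with replicate number as a block and 0.025 after scaling). Plin5, a lipid droplet protein, was at 1.03 ± 0.0761 RPKM with 611 and 1.37 ± 0.325 RPKM with DMSO (limma adjusted p = 0.087; 0.031 after scaling). Ppard, a PPAR found in many tissues, was at 13.7 ± 0.700 RPKM with 611 and 15.2 ± 0.689 RPKM with DMSO and was called lower (limma adjusted p = 0.045, from 0.0017 to 0.14 over its alternatives). Ppara, the PPAR of oxidative tissues, was at 3.09, 2.54 and 2.57 RPKM with 611 and 3.20, 2.49 and 2.99 RPKM with DMSO (limma adjusted p = 0.60). Ppargc1a, which coactivates PPARs, was listed at 0.603, 0.627 and 0.885 RPKM with 611 and 0.641, 0.487 and 0.454 RPKM with DMSO (limma adjusted p = 0.13). For both genes the groups overlapped. Pdk4, the kinase that turns off pyruvate oxidation when fat is burned, was at 77.2 ± 4.70 RPKM with 611 and 82.6 ± 4.51 RPKM with DMSO (limma adjusted p = 0.17; 0.012 with replicate number as a block and 0.0029 after median-of-ratios scaling). Ehhadh, the peroxisomal bifunctional enzyme, fell 1.95-fold, at 51.8 ± 4.04 RPKM with 611 and 101 ± 1.03 RPKM with DMSO, and Fgf21, a hormone gene under PPAR control, fell 2.02-fold, at 1.92 ± 0.417 RPKM with 611 and 3.88 ± 0.458 RPKM with DMSO (limma adjusted p = 1.8e-06 for Ehhadh and 4.5e-04 for Fgf21).

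Neighbouring pathways were lower in the same libraries, where 17.7% of all 13829 genes tested were lower and 41.6% higher. In the tricarboxylic acid cycle 17 of 17 genes fell, and their median log2 fold change was -0.49. In a list of complex I subunits 24 of 24 fell, and the median was -0.39. In peroxisomal oxidation, leaving out Ech1 and Eci2, which are also among the 30 genes, 12 of 17 fell and 1 rose, with a median of -0.30. The summed level of the 30 genes was 1.09 ± 0.0161 times that of the tricarboxylic acid cycle list with 611 and 1.16 ± 0.0102 times it with DMSO. Relative to complex I it was 1.13 ± 0.0161 with 611 and 1.28 ± 0.0211 with DMSO, and relative to the peroxisomal list it was 2.65 ± 0.0346 with 611 and 2.26 ± 0.00762 with DMSO. In each of these ratios of sums, to which abundant genes contribute most, the groups did not overlap. The ratio to the peroxisomal sum was higher with 611, whereas the median log2 fold change was lower for the oxidation genes, at -0.50, than for the peroxisomal list, at -0.30.

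**Figure D5:**
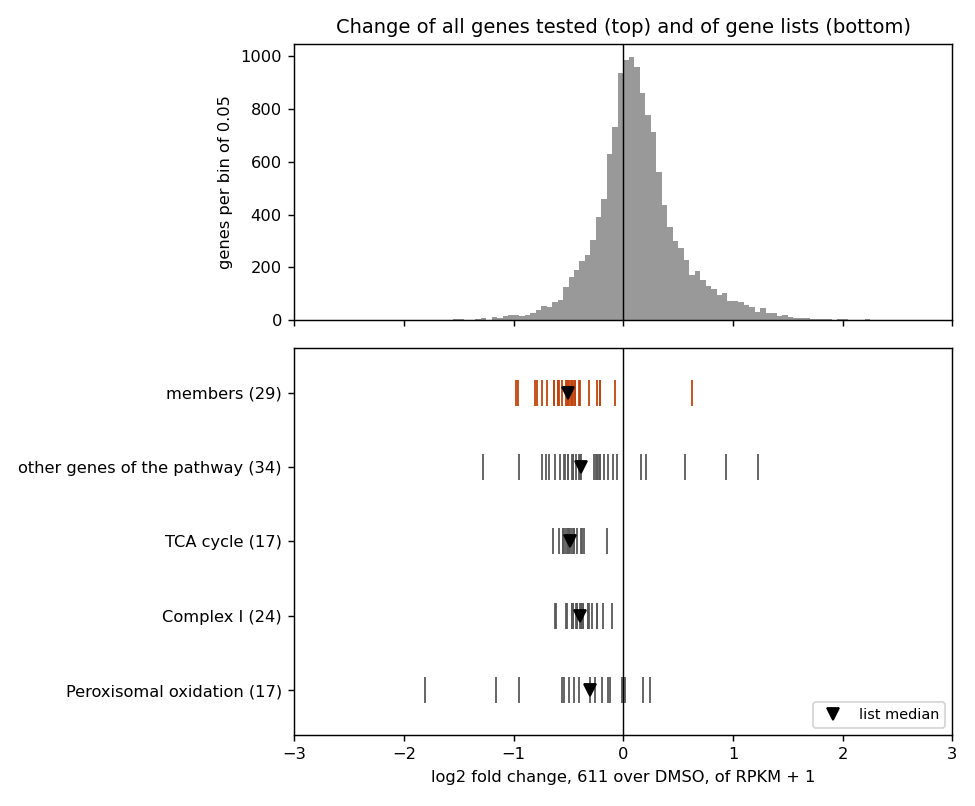
Top, the number of genes per bin of log2 fold change, 611 over DMSO, for all 13829 genes tested; bottom, a tick for each tested gene of the 30-gene pathway and of the lists beside it, with a triangle at each list's median. The pathway's median lies at -0.50 and those of the other lists between -0.49 and -0.30, while most genes lie near the all-gene median of 0.10.

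Markers of cell types moved in the same libraries. Of all 13829 genes tested, 17.7% were called lower and 41.6% higher, so a rise of 1 or 2 tested markers is not set apart from that share. All 8 fat cell markers were lower, with a summed level of 14209 to 15769 RPKM with 611 and 27268 to 28440.4 RPKM with DMSO. Of 8 brown fat markers 6 were tested and 5 fell, with sums of 83.5 to 102 RPKM with 611 and 224 to 268 RPKM with DMSO, and Ucp1, which defines the type, had a value of 0 in each of the 6 libraries. Progenitor markers were higher in 5 of 6 tested, with sums over 7 genes of 217 to 230.5 RPKM with 611 and 64.1 to 72.6 RPKM with DMSO, and Dpp4 among them was listed at 0. All 4 markers of dividing cells were higher, with sums of 111 to 129 RPKM with 611 and 46.8 to 49.8 RPKM with DMSO. Muscle markers summed to 1.48 to 1.90 RPKM with 611 and 1.77 to 1.98 RPKM with DMSO, and the defining genes Myod1, Myog and Ckm were listed at 0. Of 4 bone markers the 1 tested, Runx2, rose, with sums of 4.91 to 5.57 RPKM with 611 and 2.23 to 2.46 RPKM with DMSO, and of 3 cartilage markers the 2 tested, Col2a1 and Sox9, rose, with sums of 23.8 to 24.9 RPKM with 611 and 9.90 to 10.6 RPKM with DMSO and Acan at 0. The macrophage genes Ptprc and Adgre1 and the endothelial genes Pecam1 and Cdh5 were too low to test, with Ptprc and Cdh5 at 0, and sums of at most 0.0155 and 0.129 RPKM in any library. The part of these shifts in the lower level of the oxidation genes was not tested.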

How the data were processed

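The authors deposited, for each library, RPKM values of 28430 RefSeq transcripts in a file with no header; no header states the unit, which was taken as RPKM from the description of the series used here, and sums differ between libraries. Per the submitters' processing notes, TopHat2 2.0.12, TopHat, SAMtools and build mm9 were used. The program behind the RPKM values, its annotation and its use of strand are not named in the labels or file headers, so overlapping genes cannot be told apart: 10 of the 30 genes overlap another gene of the tables in the RefSeq gene table. Per the labels' protocols, TRIzol extraction preceded TruSeq stranded mRNA library preparation. The design text calls the libraries biological triplicates; p-values measure the spread between these cultures.

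Symbols came from RefSeq (GRCm38.p6, names only): 27789 accessions matched, and the unmatched held 1.50% of summed RPKM. The transcript with the highest mean stood for its gene. Library totals, estimated from the steps of values below 0.3 RPKM at GENCODE lengths, were 4.08e+07 to 4.12e+07 reads with 611 and 3.88e+07 to 3.99e+07 with DMSO; at these totals 504 to 571 of 3761 to 3903 such values per library lay within 0.05% of 1 to 4 whole reads, so reads given for a gene are approximate. Floors of 3 reads cover counting error only. Replicates differed by more than sampling noise (chi-square per gene 9.01 to 14.2 within groups over 11136 genes) and were kept apart.

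limma 3.58.1 with trend in R 4.3.3 was fitted to log2(RPKM + 1), with group as the only term, after a filter that kept genes with 0.1 RPKM or more in 3 or more libraries; fold changes on this scale understate those of low genes, and printed folds are ratios of mean RPKM. P-values were Benjamini-Hochberg adjusted over 13829 genes, with calls below 0.05. The fit was tested on simulated data in which few genes changed and libraries were unpaired. Those settings differ from the data here, so that test does not show how calls behave in them. Same-numbered libraries deviated together from their group means (correlations 0.30, 0.30 and 0.18 across genes), and differently numbered ones did not (-0.23 to -0.07). These correlations are not independent, because deviations within a group sum to 0. From the data, and not from a label, the numbers were nevertheless read as pairs. Only the blocked fit, which is an alternative, the sign-flip p and the statements on same-numbered pairs used them. The main fit and the permutation test did not. Alternatives were another pseudocount, filters, median-of-ratios scaling, summed transcripts, no trend, the block and each library left out. The genes, lists and tests were chosen with earlier results of these data known. Named outside the 30 genes were the 8 largest called changes at 1 RPKM or more in the other pathway lists, and Ppara, Ppargc1a, Slc25a20 and Pdk4. Acacb, Acsl5, Angptl4, Plin5, Ppard and Gm44502 are named outside that rule, after their values were seen; some other genes of these lists are not reported here.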

Additional observations from a re-analysis of the deposited data

How the results depend on the processing

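The counts of 27 lower and 1 higher members held under 12 of 13 alternatives, and median-of-ratios scaling gave 28 lower and 1 higher. Under that scaling the genes of the whole table called lower numbered 3959 in place of 2451, with 49.9% of all calls higher in place of 70.1%, the members' median log2 fold change was -0.65, their summed level was 0.596 times that of DMSO, Oxct1 was called lower and the peroxisomal list had 0 genes higher. That list also had 0 higher without the filter on low values. With each library left out in turn, the peroxisomal list had 0 to 1 higher, the members' median lay between -0.53 and -0.46, their sum between 0.647 and 0.669 times that of DMSO, and the log2 ratio of Etfa over Etfb between -0.063 and 0.023, where leaving out a library also breaks a pair; within the 3 pairs its sign was constant. With replicate number as a block the member counts were 27 and 1, Pdk4 and Angptl4 were called, the other pathway genes lower numbered 27 in place of 25, and the pairs' exact sign-flip p was 0.25, the smallest that 3 pairs allow, except 0.50 for Pcca over Pccb. The cause of these shifts was not tested. Depth limits Bdh1.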
